A study of Mus musculus with 8 samples.

Results

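The genes of the oxidative phosphorylation machinery were examined in mouse liver. They were the genes whose symbol in the array platform's annotation starts with Ndufa, Ndufb, Ndufc, Ndufs or Ndufv and a digit, with Uqcr, with Cox4 to Cox8 or with Atp5, together with Sdha, Sdhb, Sdhc, Sdhd, Cycs and Cyc1. Assembly factors (Ndufaf) were left out. The rule found 85 of the 19560 genes measured. Of these, 82 code for subunits or carriers, with 36 named for complex I, 4 for complex II, 8 for complex III, 18 for complex IV and 15 for complex V, besides cytochrome c (Cycs). The other 3 fit only through an old platform symbol: Emc8 was listed as Cox4nb, Dmac2l as Atp5s and Dmac2 as Atp5sl. They stayed in the count of members and were kept out of the values by complex.

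Total RNA came from snap-frozen livers of 8 male mice aged 6 weeks, each measured on 1 Affymetrix array. Every mouse lacked TAK1, a kinase of inflammatory and survival signalling, in its liver parenchymal cells (LPC). The Tak1/Casp8 group (4 mice) also lacked caspase 8, the initiator protease of death receptor apoptosis, in LPC. The Tak1/Rip3 group (4 mice) carried Rip3-/-, a loss of the necroptosis kinase throughout the animal. The other cells of the liver therefore kept Tak1 in both groups and Casp8 in the Tak1/Casp8 group, and the labels do not name the driver of the LPC deletion. No livers with intact TAK1 were used here, and each value therefore compares the groups with each other and not with a healthy liver. Values are log2 intensities, and differences were taken as Tak1/Casp8 minus Tak1/Rip3. A gene was called where limma's adjusted p, over all 19560 genes, was under 0.05.

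Oxidative phosphorylation makes most of the ATP of a hepatocyte. Complex I takes electrons from NADH and complex II from succinate, both hand them to ubiquinone, complex III passes them to cytochrome c, and complex IV gives them to oxygen. Complexes I, III and IV pump protons across the inner mitochondrial membrane, and complex V, the ATP synthase, uses the gradient. Most subunits are encoded in the nucleus, and the transcription factors NRF1, GABPA (an ETS factor), YY1 and ERRalpha, with the coactivator PGC-1alpha, are known to drive many of these genes.

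The arrays agreed closely, with medians between 8.06 and 8.16 and correlations across genes between 0.975 and 0.993. Tak1/Casp8 replicate 4 had the lowest mean correlation with its own group, 0.985, against 0.987 to 0.991 for the other 7 arrays. Casp8 averaged 9.97 ± 0.13 in Tak1/Casp8 livers and 11.27 ± 0.13 in Tak1/Rip3 livers (SD, n = 4 each), a 2.47-fold lower level (limma adjusted p = 0.000123). Ripk3 averaged 7.90 ± 0.09 in Tak1/Casp8 livers and 6.92 ± 0.38 in Tak1/Rip3 livers, a 1.97-fold higher level (limma adjusted p = 0.00782), while the brightest of its 10 probe sets gave a difference of -0.04. Map3k7, the gene of TAK1, had a difference of -0.08 (limma adjusted p = 0.695) and no group here carried it intact in LPC. Casp8 and Ripk3 were thus each lower in the group labelled as lacking them.

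The subunit genes differed little between the groups, and most of the small differences pointed the same way. Of the 85 members, 71 (83.5%) had a lower mean in Tak1/Casp8 livers, against 47.4% of all genes. The median difference over the members was -0.10, equal to 6.8% lower in Tak1/Casp8 livers, beside 0.01 over all genes. In whole tissue, fewer cells of a type and less RNA per cell cannot be told apart. The differences ran from -0.45 (Cox7a2) to 0.29 (Cox8c). Only Cox7a2 was called, which is 1.18% of the members, against 4.05% of all genes called lower and 2.64% called higher (6.69% in either direction). No member was called higher. Without an adjustment for multiple tests, 10 members (11.76%) had a p under 0.05, all with a negative difference, beside 11.8% of all genes with such a p and a negative difference and 9.3% with a positive one (21.1% in all). The members' share of calls was therefore below the background, and their share of small negative differences was above it. Every member differed by less than 0.5 log2 units, a size at which the fit recovered only 17.9% of genes on simulated data. The low share of calls therefore does not show that the members' levels were equal.

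The same comparison was made among genes of like signal. Among 1154 other genes with a mean at or above the median of the members, 47.4% had a negative difference and the median was 0.01, while 95 were called higher and 38 lower, 11.5% in all. The members' replicates lay close together, with a median within-group SD of 0.13, beside 0.18 over all genes and 0.13 over genes of like signal. The 95% interval of the difference lay within 0.5 log2 units of zero (1.41-fold) for 72 of the 85 members and within 1 unit (2-fold) for all 85. It lay within 0.3 log2 units for 28.

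**Figure D1:**
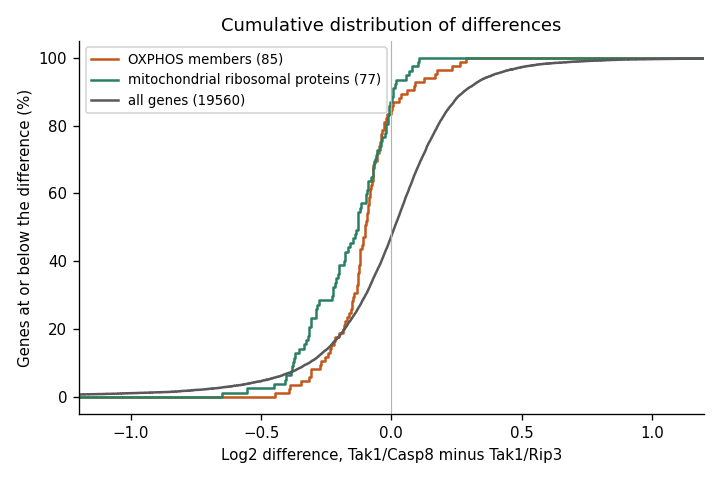
Cumulative share of genes (y axis, percent) at or below each log2 difference, Tak1/Casp8 minus Tak1/Rip3 (x axis), for the 85 members, 77 genes of mitochondrial ribosomal proteins and all 19560 genes. The members' curve is steep and crosses the zero line at 83.5%, where that of all genes stands at 47.4%, and it has no long tail on either side.

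The livers of each group did not move as a block. The median deviation of the members from their own means over the 8 arrays was -0.12, -0.03, -0.14 and 0.10 in Tak1/Casp8 replicates 1 to 4, and 0.06, 0.09, 0.03 and 0.04 in Tak1/Rip3 replicates 1 to 4. Tak1/Casp8 replicate 4 thus stood just above all 4 Tak1/Rip3 livers, and the other 3 Tak1/Casp8 livers stood below them. Over the 74 subunit genes without isoforms known mainly from other tissues it did not, at 0.08 against 0.10 in Tak1/Rip3 replicate 2. Tak1/Casp8 replicate 4 also had the highest median deviation over all genes, 0.06 against -0.03 to 0.04 in the other arrays. Replicate 4 was the highest of its group for 71 of the 85 members (83.5%), against 42.0% of all genes. Without it, 76 members (89.4%) had a negative difference, with a median of -0.14, beside 51.6% and -0.01 over all genes. The number of members whose values did not overlap between the groups, with Tak1/Casp8 lower, was then 28 (32.9%), against 12% of all genes, while over all 8 arrays it was 9 (10.59%), against 8.3%. Without Tak1/Rip3 replicate 3 it was 14 (16.5%), against 10.3% of all genes. Leaving out any 1 of the other arrays gave 9 to 12 members, with no share over all genes taken. Tak1/Casp8 replicate 4 is set apart here because it was high for these same members, so the count of 28 is not independent of that choice. Cox7a2 was still the only member called without replicate 4 (limma adjusted p = 0.0166).

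**Figure D2:**
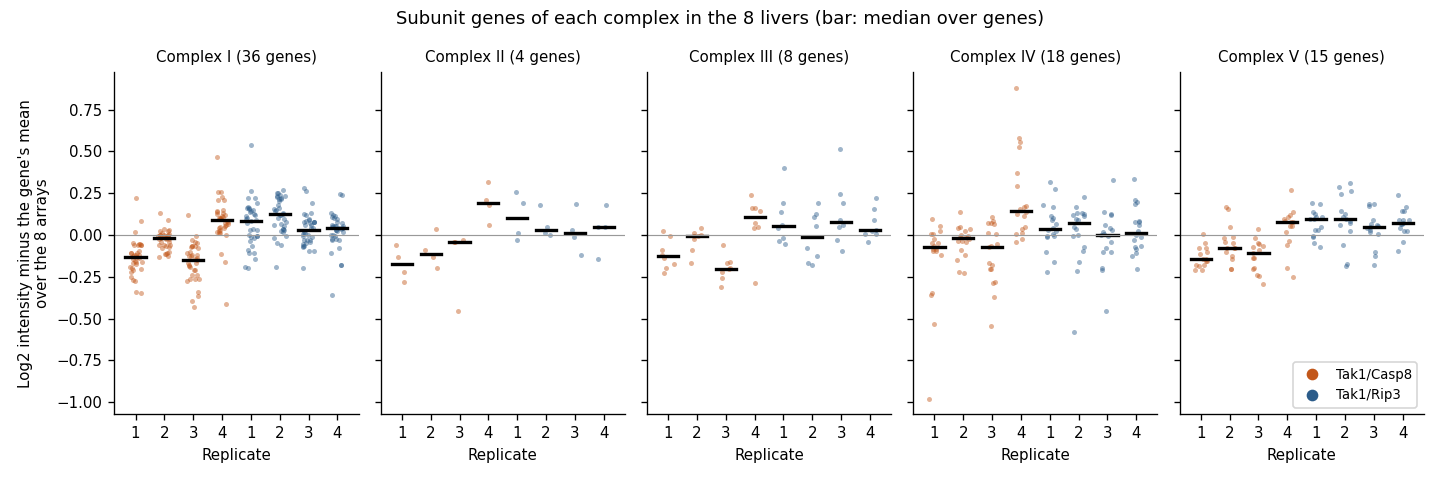
Log2 intensity of each subunit gene minus its own mean over the 8 arrays (y axis), for each liver (x axis, replicates 1 to 4 of Tak1/Casp8 in orange, then 1 to 4 of Tak1/Rip3 in blue), in 1 panel per complex; bars are medians over genes. In every panel the bar of Tak1/Casp8 replicate 4 lies above those of Tak1/Casp8 replicates 1 to 3, and for complex I these were 0.09 against -0.12, -0.02 and -0.15.

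The promoters of Cycs, the carrier of the chain, and of the 4 members with the smallest adjusted p are shown, since many members had small differences of one sign. The windows run from 250 bases before to 50 after the start of the gene in the RefSeq table of build GRCm38.p6, 5′ to 3′ along the gene. Capitals mark matches to GCGCATG, the core letters of an NRF1 site, or to CCGGAAG, the letters of an ETS site, on either strand. The Cox7a2 window is chr9:79759804-79760103, that of Atp5o is chr16:91931581-91931880, that of Atp5g2 is chr15:102670998-102671297, that of Ndufs3 is chr2:90904672-90904971 and that of Cycs is chr6:50566520-50566819, all on the minus strand.
Cox7a2: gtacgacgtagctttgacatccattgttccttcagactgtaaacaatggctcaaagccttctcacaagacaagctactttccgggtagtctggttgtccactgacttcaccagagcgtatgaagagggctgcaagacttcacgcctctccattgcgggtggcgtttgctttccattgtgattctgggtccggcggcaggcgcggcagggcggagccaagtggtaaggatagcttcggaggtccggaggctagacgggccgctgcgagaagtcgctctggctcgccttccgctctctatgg
Atp5o: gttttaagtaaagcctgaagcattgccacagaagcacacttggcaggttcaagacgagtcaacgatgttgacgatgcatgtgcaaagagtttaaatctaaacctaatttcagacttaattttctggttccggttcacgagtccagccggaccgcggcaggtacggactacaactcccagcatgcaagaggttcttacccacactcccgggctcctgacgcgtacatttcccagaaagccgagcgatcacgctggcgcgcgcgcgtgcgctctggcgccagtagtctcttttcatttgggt
Atp5g2: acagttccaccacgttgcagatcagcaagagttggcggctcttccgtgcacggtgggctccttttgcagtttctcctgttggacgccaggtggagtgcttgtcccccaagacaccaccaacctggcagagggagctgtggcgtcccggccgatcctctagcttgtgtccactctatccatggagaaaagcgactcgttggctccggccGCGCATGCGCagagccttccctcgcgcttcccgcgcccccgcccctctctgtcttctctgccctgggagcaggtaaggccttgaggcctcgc
Ndufs3: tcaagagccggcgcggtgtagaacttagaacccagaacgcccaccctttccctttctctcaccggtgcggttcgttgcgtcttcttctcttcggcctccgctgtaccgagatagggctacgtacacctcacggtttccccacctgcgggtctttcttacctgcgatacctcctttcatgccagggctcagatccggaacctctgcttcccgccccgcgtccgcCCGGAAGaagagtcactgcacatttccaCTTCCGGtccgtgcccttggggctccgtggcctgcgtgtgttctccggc
Cycs: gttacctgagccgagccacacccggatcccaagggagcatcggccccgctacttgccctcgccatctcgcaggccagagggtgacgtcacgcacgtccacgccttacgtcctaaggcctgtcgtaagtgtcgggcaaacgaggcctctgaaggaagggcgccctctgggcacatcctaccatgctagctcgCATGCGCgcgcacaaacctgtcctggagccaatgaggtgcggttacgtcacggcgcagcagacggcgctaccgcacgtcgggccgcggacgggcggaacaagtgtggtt
The Atp5g2 window holds overlapping NRF1 matches on both strands, that of Ndufs3 holds 2 ETS matches on opposite strands, and that of Cycs holds 1 NRF1 match. None of the 4 strings searched was found in the windows of Cox7a2 and Atp5o, which says only that these letters are not there.

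Over all members, 75 windows of 69 genes were in the RefSeq table. The NRF1 letters were found in 18.7% of them, against 5.12% of 18911 windows of measured genes. The ETS letters were found in 21.3% of the members' windows and in 12.3% of those of measured genes. The letters of an ERR site, AAGGTCA, were found in 10.7% and 3.8%, and the YY1 letters, AAGATGG, in 17.3% and 6.37%. At least 1 of the 4 strings was found in 52% of the members' windows, against 24.7%, at the same median GC content of 57.7%. The members with a given string had median differences between -0.13 (the 8 with the ERR letters) and -0.09 (the 12 with the YY1 letters), and those without it between -0.10 and -0.09. A match describes the letters only.

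Complex I is the entry point for electrons from NADH. None of its 36 genes was called, 34 had a negative difference, and the median was -0.10. Ndufc1, an accessory subunit of the membrane arm, measured 9.80, 10.01, 9.78 and 10.21 in Tak1/Casp8 livers, against 10.68, 10.41, 10.09 and 10.17 in Tak1/Rip3 livers. Its groups overlapped through Tak1/Casp8 replicate 4, and the difference was -0.39 ± 0.15 (SE, limma adjusted p = 0.163). Ndufs3, a core subunit of the peripheral arm, measured 11.17, 11.26, 10.98 and 11.40 in Tak1/Casp8 livers, against 11.60, 11.59, 11.39 and 11.62 in Tak1/Rip3 livers. Here replicate 4 of Tak1/Casp8, at 11.40, exceeded only replicate 3 of Tak1/Rip3, at 11.39. The difference of -0.35 ± 0.11 missed the threshold (limma adjusted p = 0.0954), although all 7 probe sets of Ndufs3 were lower in Tak1/Casp8 livers. Their differences ran from -0.44 to -0.04, and the gene value came from different probe sets on different arrays. Ndufb8, an accessory subunit widely used as a blot marker of complex I, had a difference of -0.27 (95% interval -0.55 to -0.002, limma adjusted p = 0.233).

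Values of complex I genes did not overlap between the groups for Ndufs1, Ndufb7 and Ndufb10, which is 3 of 36 and no more than the 8.3% of all genes that were lower without overlap. Ndufs1, the large core subunit that carries iron-sulfur clusters, measured 10.00, 9.94, 9.93 and 9.89 in Tak1/Casp8 livers, against 10.24, 10.13, 10.13 and 10.15 in Tak1/Rip3 livers. Its replicates lay within a SD of 0.06 in either group, and 19 of its 20 probe sets were lower in Tak1/Casp8 livers. The difference was -0.22 ± 0.08 (limma adjusted p = 0.152), and with the mean over probe sets in place of the median it was -0.32 and passed (limma adjusted p = 0.0278). Ndufb7 and Ndufb10, accessory subunits that face the intermembrane space, had differences of -0.20 and -0.15. At the other end, Ndufa4l2, a paralogue of Ndufa4 known to rise under hypoxia, had a difference of 0.18 (95% interval -0.13 to 0.48). Ndufa4, named for complex I and since assigned to complex IV, had one of 0.04, whose sign changed with the way the 5 probe sets were combined.

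Complex II links the citric acid cycle to the chain. None of its 4 genes was called, and the median difference was -0.13. Sdhd, a membrane anchor, measured 10.94, 11.13, 10.77 and 11.43 in Tak1/Casp8 livers, against 11.48, 11.22, 11.41 and 11.40 in Tak1/Rip3 livers. Replicate 4 of Tak1/Casp8 lay among the Tak1/Rip3 values and the other 3 lay below all of them. The difference was -0.31 (95% interval -0.62 to just below zero, limma adjusted p = 0.236). Sdha, the flavoprotein that oxidises succinate, had a difference of -0.13 (-0.38 to 0.11), with 7 of its 15 probe sets lower in Tak1/Casp8 livers, and its brightest probe set gave 0.07. Sdhc, the other anchor, had one of -0.12 (-0.32 to 0.09) with all 6 probe sets lower. Sdhb, the iron-sulfur subunit, had a positive difference of 0.13 (-0.11 to 0.37), measuring 10.96, 11.06, 10.98 and 11.34 in Tak1/Casp8 livers, against 10.99, 11.07, 10.90 and 10.88 in Tak1/Rip3 livers. Of its 9 probe sets 7 were lower in Tak1/Casp8 livers, so that the mean over them gave -0.07, and the positive sign rests on the probe set that the median picked out.

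Complex III passes electrons from ubiquinol to cytochrome c. None of its 8 genes was called, 7 had a negative difference, and the median was -0.09. Uqcrb, the small ubiquinone-binding subunit, measured 10.34, 10.31, 10.27 and 10.19 in Tak1/Casp8 livers, against 10.88, 10.35, 10.99 and 10.48 in Tak1/Rip3 livers. The groups did not overlap, but replicate 2 of Tak1/Rip3, at 10.35, lay next to the highest Tak1/Casp8 liver, at 10.34. The Tak1/Rip3 values spread widely (SD 0.31, against 0.06 in Tak1/Casp8 livers), and the difference was -0.39 ± 0.14 (limma adjusted p = 0.141) on 1 probe set. Cyc1, the cytochrome c1 subunit, had a difference of -0.23 (95% interval -0.50 to 0.04), and Uqcrh, the hinge protein that contacts cytochrome c, one of -0.18 (-0.40 to 0.05). Uqcrc2, a core protein, stood at 12.45 ± 0.12 in Tak1/Casp8 livers and 12.44 ± 0.12 in Tak1/Rip3 livers (SD, n = 4 each), with an interval of -0.22 to 0.23.

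Cycs, the mobile carrier that also activates the apoptosome when released, measured 12.30, 12.44, 12.35 and 12.54 in Tak1/Casp8 livers, against 12.78, 12.35, 12.57 and 12.66 in Tak1/Rip3 livers. The groups overlapped through replicate 2 of Tak1/Rip3. The difference was -0.18 (95% interval -0.43 to 0.06, limma adjusted p = 0.389), with all 4 probe sets lower in Tak1/Casp8 livers. Without that replicate it was -0.26, and its promoter window is the one above with a single NRF1 match, an element known from the rat gene.

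**Figure D3:**
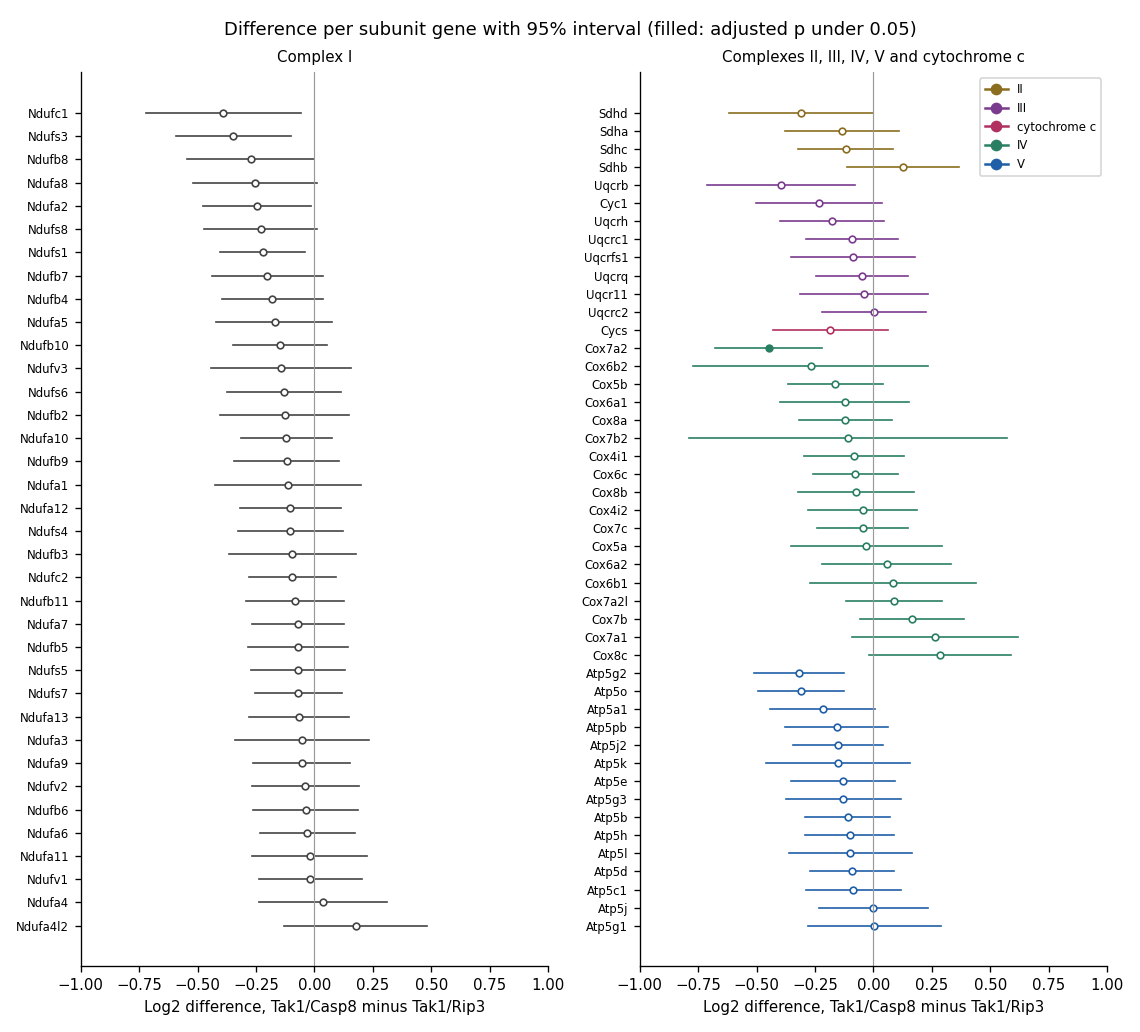
Log2 difference, Tak1/Casp8 minus Tak1/Rip3 (x axis), with its 95% interval (line), for each of the 82 subunit and carrier genes, complex I on the left and the others on the right in colours by complex; a filled circle marks an adjusted p under 0.05. Cox7a2 at -0.45 is the only filled circle, and most open circles lie left of zero with intervals that cross it.

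Complex IV reduces oxygen, and its small subunits exist in tissue isoforms. Of its 18 genes, 1 fell (Cox7a2), 12 had a negative difference, and the median was -0.06. Cox7a2, the isoform of subunit 7a used in liver, measured 10.94, 11.18, 10.93 and 11.26 in Tak1/Casp8 livers, against 11.62, 11.53, 11.44 and 11.51 in Tak1/Rip3 livers. In this gene value all 4 Tak1/Casp8 livers lay below all Tak1/Rip3 livers. The difference was -0.45 ± 0.10 (SE), a 1.36-fold lower level (limma adjusted p = 0.029). Of its 7 probe sets 5 were lower in Tak1/Casp8 livers, by up to 0.52, and none passed singly (lowest limma adjusted p = 0.105 over all probe sets, where 1.64% were called). Within each group the gene value came from a probe set with a difference of -0.19 on some arrays and of -0.52 on others. In most of the 7 probe sets the groups overlapped.

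The call of Cox7a2 rested on each of several choices. It was lost with the mean over probe sets (-0.21, limma adjusted p = 0.218), the brightest probe set (-0.35, 0.165) and arrays shifted to one median (-0.41, 0.0536), and without any 1 array other than Tak1/Casp8 replicate 4 (limma adjusted p between 0.0504 and 0.0891). Its sign was negative under each of these settings.

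None of the other liver isoforms of complex IV was called, and each of their 95% intervals included zero. Cox5b, a regulatory subunit that binds zinc, had a difference of -0.16 (95% interval -0.37 to 0.04), Cox6a1 one of -0.12 (-0.40 to 0.15) and Cox8a one of -0.12 (-0.32 to 0.08). Cox4i1, the common form of the largest nuclear-encoded subunit, had one of -0.08 (-0.29 to 0.13). Cox7b had a difference of 0.17 (-0.06 to 0.39), and its brightest probe set gave -0.01. Cox7a2l, a relative of Cox7a2 that joins complexes III and IV, stood at 8.76 ± 0.07 in Tak1/Casp8 livers and 8.67 ± 0.11 in Tak1/Rip3 livers (SD, n = 4 each), with a difference of 0.09 (-0.12 to 0.29). Cox6b1 had one of 0.09 (-0.27 to 0.44), and -0.09 without Tak1/Rip3 replicate 2, where its only probe set read 12.46 against 13.10 to 13.23 in the other 3 livers of that group.

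The 8 paralogues known mainly from other tissues or conditions were dim, with a mean value between 6.51 and 7.15 in Tak1/Casp8 livers and between 6.55 and 6.75 in Tak1/Rip3 livers, beside a lower quartile of 6.22 over all genes. Their median difference was 0.01, with 4 negative and 4 positive. Cox8c, a testis form, measured 6.02, 5.96, 6.01 and 6.58 in Tak1/Casp8 livers, against 5.84, 5.90, 5.79 and 5.89 in Tak1/Rip3 livers. It was the only member whose values did not overlap with Tak1/Casp8 higher (1.18%, against 6.33% of all genes), and the difference was 0.29 ± 0.14 (limma adjusted p = 0.266). Cox7a1, the heart and muscle partner of Cox7a2, had a difference of 0.26 (95% interval -0.09 to 0.62), and Cox6a2, another muscle form, one of 0.06 (-0.22 to 0.33). Cox6b2 of testis had a difference of -0.27 (-0.77 to 0.23), Cox8b of muscle and brown fat one of -0.07 (-0.32 to 0.18), and Cox4i2 of lung one of -0.05 (-0.28 to 0.19). Tak1/Casp8 replicate 4 had the highest value of its group for all 8. The 8 striated muscle markers had no call and a mean value between 6.51 and 6.76 in Tak1/Casp8 livers and between 6.44 and 6.67 in Tak1/Rip3 livers, and 6.76 was that of replicate 4. The part of such RNA in these values was not tested.

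Complex V is the ATP synthase. None of its 15 genes was called, 13 had a negative difference, and the median was -0.13. The order of the complexes by their medians was not stable. Leaving out 1 array moved the median of complex I between -0.13 and -0.06, of II between -0.19 and -0.09, of III between -0.16 and -0.04, of IV between -0.12 and -0.02 and of V between -0.16 and -0.10. The values nearest zero came without Tak1/Casp8 replicate 1 for complexes I, II, IV and V and without Tak1/Casp8 replicate 3 for complex III. The most negative came without Tak1/Casp8 replicate 4, tied with Tak1/Casp8 replicate 2 for complex I. With the brightest probe set complex IV had a median of -0.01 and complex III, at -0.12, the lowest. Atp5o, the peripheral stalk protein that ties the catalytic head to the membrane, measured 10.84, 10.84, 10.91 and 10.73 in Tak1/Casp8 livers, against 11.12, 11.13, 11.17 and 11.13 in Tak1/Rip3 livers. In this gene value the groups were apart, here with replicate 4 as the lowest Tak1/Casp8 liver. The difference was -0.31 ± 0.08 (limma adjusted p = 0.053), with all 7 probe sets lower in Tak1/Casp8 livers. Their differences ran from -0.52 to -0.02. The gene value was that of a single probe set (-0.42) on every array except Tak1/Rip3 replicate 2. In the other probe sets replicate 4 was the highest Tak1/Casp8 liver, and in most of them the groups overlapped.

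Atp5g2 codes for the c subunit of the rotor ring, as Atp5g1 and Atp5g3 do. It measured 11.98, 11.97, 11.90 and 11.90 in Tak1/Casp8 livers, against 12.14, 12.36, 12.27 and 12.24 in Tak1/Rip3 livers. The groups did not overlap, and the difference was -0.32 ± 0.09 (limma adjusted p = 0.0573). All 7 probe sets were lower in Tak1/Casp8 livers (2 of them hold identical values). Their differences ran from -0.30 to -0.13, each smaller in size than that of the gene value. That value did not come from the same probe set on every array. Atp5g3 had a difference of -0.13 (95% interval -0.37 to 0.12) and Atp5g1 one of 0.00 (-0.28 to 0.29), so of the 3 genes for this protein Atp5g2 had the most negative value. Whether the 3 differ from each other was not tested.

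Both Atp5o and Atp5g2 were close to the threshold, and both passed with genes below the 30th percentile of level left out (limma adjusted p = 0.0301 and 0.0334) and with limma's trended, robust variance (0.0231 and 0.0178). With the brightest probe set Atp5o had a difference of only -0.04 (limma adjusted p = 0.873) and Atp5g2 one of -0.25 (0.15). With arrays shifted to one median neither passed (0.094 for Atp5o and 0.115 for Atp5g2), and with the mean over probe sets Atp5g2 passed (0.0486) and Atp5o did not (0.112). Leaving out 1 array gave limma adjusted p between 0.0713 and 0.126 for Atp5o and between 0.0754 and 0.13 for Atp5g2. At an adjusted p under 0.10, 4 members were lower, Cox7a2, Atp5o, Atp5g2 and Ndufs3, which is 4.71%, against 10.9% of all genes in either direction. Every other complex V gene differed less than Atp5o and Atp5g2, those of the catalytic head and those of the stalk and ring alike. Atp5a1, the alpha subunit, had a difference of -0.22 (-0.44 to 0.01), with all 12 probe sets lower. Atp5b, the catalytic beta subunit, measured 13.33, 13.38, 13.34 and 13.45 in Tak1/Casp8 livers, against 13.46, 13.50, 13.46 and 13.52 in Tak1/Rip3 livers. It did not overlap between the groups, nor did Atp5d, the delta subunit, but these differences were only -0.11 and -0.09. With Atp5o and Atp5g2, 4 of the 15 complex V genes were lower without overlap (26.7%), against 8.3% of all genes. None was higher without overlap. Atp5j, a stalk subunit, stood at 7.84 ± 0.13 in both groups (SD, n = 4 each).

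**Figure D4:**
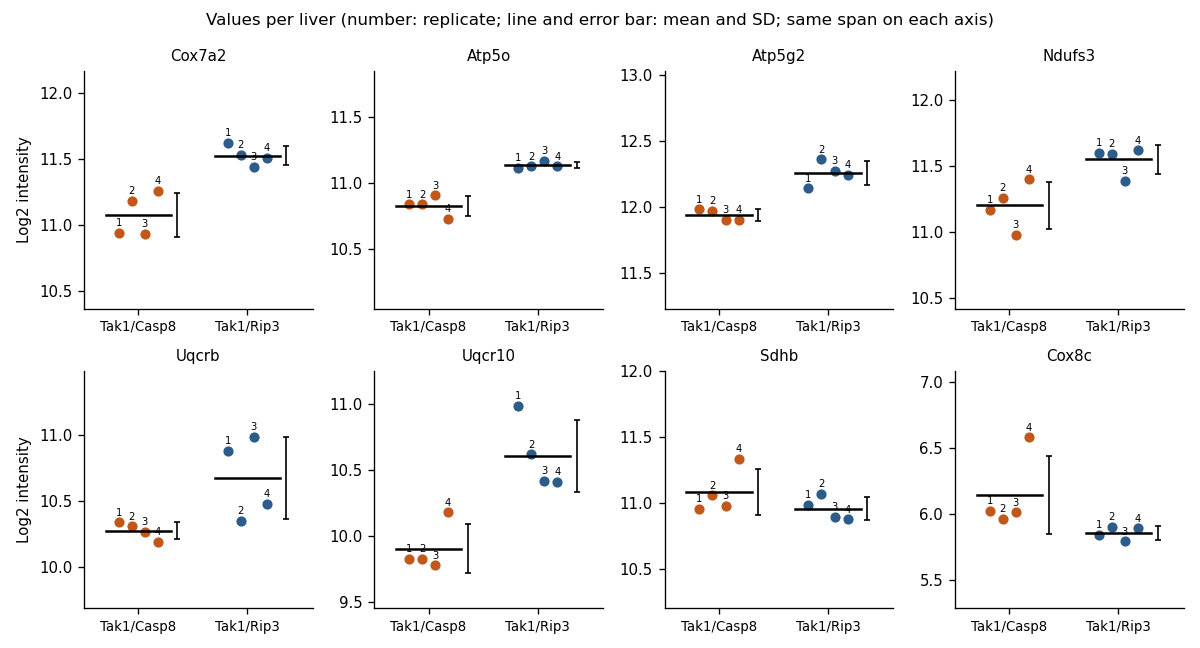
Log2 intensity (y axis, the same span in each panel) of 8 genes in each liver, Tak1/Casp8 on the left and Tak1/Rip3 on the right; numbers are replicates, lines are means and error bars are SD. Cox7a2, Atp5o, Atp5g2, Uqcrb and Uqcr10 do not overlap between the groups, with Tak1/Casp8 lower, and Cox8c does not overlap, with Tak1/Casp8 higher. Ndufs3 overlaps through 1 liver of each group, and in Sdhb and Cox8c Tak1/Casp8 replicate 4 lies above the rest.

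The pattern was also seen in single probe sets. Of the members' 458 probe sets, 355 (77.5%) had a lower mean in Tak1/Casp8 livers, beside 49.7% of all 206316 probe sets with 1 symbol. None of the 458 was called singly, against 1.64% of all. Many of these genes have processed pseudogenes of near-identical sequence, which probes may share, so the values of single members are uncertain to that extent.

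A further 4 subunit genes have platform symbols that the rule does not reach, and they were looked at only once the members' values were known. Uqcr10, a small subunit of complex III, measured 9.83, 9.83, 9.78 and 10.18 in Tak1/Casp8 livers, against 10.99, 10.62, 10.42 and 10.41 in Tak1/Rip3 livers. It fell by 0.70 ± 0.15 on the log2 scale, 1.63-fold (limma adjusted p = 0.0189), although only 2 of its 3 probe sets were lower in Tak1/Casp8 livers. Ndufab1, the acyl carrier protein of complex I, had a difference of -0.22, Atp5md one of -0.25 and Atp5mpl one of -0.21, the last 2 being small membrane subunits of complex V, and none of these passed (limma adjusted p between 0.26 and 0.389). The 13 subunits encoded in mitochondrial DNA were not analysed here.

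The factors that build the complexes showed few calls, beside 6.69% of all genes called in either direction. Acad9, an assembly factor of complex I, fell by 0.34 (limma adjusted p = 0.0436), the only one of 14 such genes called, with a median of -0.02. Uqcc3, an assembly factor of complex III, rose by 0.46 (limma adjusted p = 0.0396), 1 of 6, with a median of 0.11. Leaving out 1 array ended the call of Acad9 for 7 of the 8 arrays and that of Uqcc3 for 6. Uqcc1, of the same list as Uqcc3, had a difference of -0.46 (limma adjusted p = 0.0557), with 8 of 9 probe sets lower in Tak1/Casp8 livers. It was the list's only gene lower without overlap, 1 of 6, against 8.3% of all genes. None of 4 factors of complex II, 17 of complex IV or 4 of complex V was called, and their medians were -0.08, -0.06 and -0.05. The smallest p in these lists belonged to Sdhaf3 (-0.24, limma adjusted p = 0.345), Cox10, which makes haem A (-0.47, 0.0521), and Atpaf2 (-0.40, 0.0588).

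Of 14 regulators of mitochondrial gene expression, only Ppargc1a was called. The gene of PGC-1alpha measured 10.09, 9.62, 10.22 and 9.72 in Tak1/Casp8 livers, against 8.83, 9.60, 9.04 and 8.94 in Tak1/Rip3 livers. It rose by 0.81 ± 0.19, 1.75-fold (limma adjusted p = 0.0288), so it was higher where most subunit genes had lower means. The list's median was -0.05. Values did not overlap and were lower in Tak1/Casp8 livers for 3 of the 14, against 8.3% of all genes. These were Nrf1 (-0.39, limma adjusted p = 0.0546), Gabpb1 (-0.31, 0.121) and Tfam (-0.26, 0.166), picked out after their values were seen, and none was called. Gabpa had a difference of 0.07. The call of Ppargc1a was lost with the mean over probe sets (0.66, limma adjusted p = 0.0628), the brightest probe set (0.42, 0.394) and without any 1 of 5 arrays (limma adjusted p between 0.0733 and 0.0891).

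Other mitochondrial groups had small negative medians too. Of 77 genes of mitochondrial ribosomal proteins, 67 had a negative difference, the median was -0.13 and 6 fell, while 4.05% of all genes were called lower. The largest falls among the 4 with the smallest p were those of Mrpl47 (-0.65, limma adjusted p = 0.0189) and Mrpl28 (-0.56, 0.0314), ahead of Mrps35 (-0.45, 0.0135) and Mrpl58 (-0.38, 0.0345). Leaving out 1 array ended the call of Mrpl58 for 7 of the 8 arrays, of Mrpl28 for 6, of Mrpl47 for 3 and of Mrps35 for none. Of 16 genes of protein import and chaperones, 15 had a negative difference, the median was -0.15, and Timm17a, a channel component of the inner membrane, fell by 0.67 (limma adjusted p = 0.00209). Of 13 citric acid cycle genes, 11 had a negative difference, the median was -0.16, and Mdh2, malate dehydrogenase, fell by 0.56 (limma adjusted p = 0.0117).

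Single calls were made in a further pair of lists, to be read against the same 4.05% of all genes called lower. Pdss1, which makes the side chain of ubiquinone, fell by 0.59 (limma adjusted p = 0.00668), 1 of 12 genes of that pathway, whose median was -0.10, but its brightest probe set gave a difference of 0.02 and no call. Ucp2, an inner membrane carrier, fell by 0.74 (limma adjusted p = 0.00282), 1 of 13 carriers, whose median was -0.17. None was called among 8 genes of other electron entry into the quinone pool (median -0.003, Prodh 0.63 with limma adjusted p = 0.054), 6 antioxidant enzymes (median -0.06, Txn2 -0.18 with 0.296) or 13 glycolysis genes (median 0.02, Ldha -0.28 with 0.0981).

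**Figure D5:**
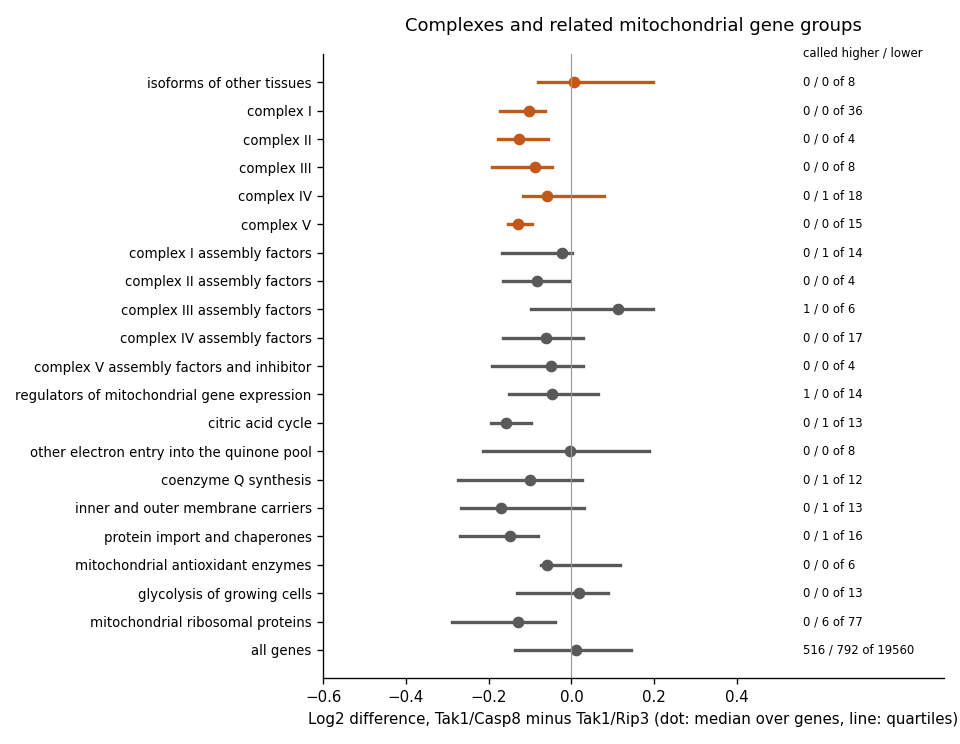
Median log2 difference over the genes of each group (dot) with the quartiles over genes (line), Tak1/Casp8 minus Tak1/Rip3 (x axis), for the complexes in orange and related groups in grey, with the number of genes called higher and lower at the right. With all 8 arrays the complexes lie between -0.13 and -0.06, near the citric acid cycle at -0.16 and the mitochondrial ribosomal proteins at -0.13, and all genes lie at 0.01.

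Liver holds several cell types, and their markers were read beside the subunit genes. The 5 hepatocyte markers (Alb, Apoa1, Ttr, Cps1 and Cyp2e1) had no call, and all lay at or above the 99.7th percentile of level over all genes. Their median difference was -0.04, with a mean value between 13.54 and 13.64 in Tak1/Casp8 livers and between 13.62 and 13.71 in Tak1/Rip3 livers. The 5 stellate cell markers had a median of -0.36, with Lrat called (-0.59, limma adjusted p = 0.0123) and a mean value between 9.26 and 9.95 in Tak1/Casp8 livers and between 9.96 and 10.31 in Tak1/Rip3 livers. The lowest of these, 9.26, was that of Tak1/Casp8 replicate 4, the liver with the highest median deviation over the members. Of 5 T and B cell markers, Cd79a (-1.38, limma adjusted p = 0.00071) and Ms4a1 (-1.11, 0.00442) fell, and the median was -0.05. Both were dim, at 5.09 and 4.89 in Tak1/Casp8 livers and 6.47 and 6.00 in Tak1/Rip3 livers, beside a lower quartile of 6.22 over all genes. Cd3e, Cd3g and Ptprc had differences of -0.05, 0.005 and -0.003. Of 5 cholangiocyte markers, Spp1 rose (0.97, limma adjusted p = 0.0166) and the median was -0.30. The others were not called and went both ways: Epcam -1.05 (limma adjusted p = 0.0651), Krt7 -0.30, Krt19 -0.30 and Sox9 0.29. None was called among 6 macrophage, 5 endothelial, 4 neutrophil and 3 brown fat markers. The part of these cells in the small differences of the subunit genes was not tested.

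The genes outside the rule whose values most resembled the members' median over the 8 arrays were Nmnat1, Acads, Slc25a13, Ugt2b1 and Glrx5, with Pearson's r between 0.984 and 0.992. These are descriptions over 8 arrays, on which Tak1/Casp8 replicate 4 is high and replicates 1 and 3 are low. Acads, for example, measured 10.27, 10.64, 10.30 and 11.04 in Tak1/Casp8 livers, against 10.87, 11.05, 10.85 and 10.81 in Tak1/Rip3 livers. None of the 5 was called, and their differences ran from -0.70 (Ugt2b1) to -0.29.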

How the data were processed

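Gene expression was measured in 8 livers, 4 per group, and the groups were set by the genotype labels. The values deposited by the authors are log2 intensities from RMA, a tool that the submitters' processing notes name without a version. RMA aligns the distributions of the arrays, which takes out any change common to most genes, and near background it shrinks small differences. No detection calls were used, and for arrays their number limits the precision. The labels give no batch, so none was tested.

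Of 223771 probe sets, 206316 with exactly 1 symbol in the platform annotation were used, and 1 value per gene and array was their median, giving 19560 genes. The median can come from different probe sets on different arrays. Symbols (2571) were updated through RefSeq's table of assembly GRCm38.p6, which held 19456 of the genes; the build behind the array's annotation is not stated there. Differences were tested with limma 3.58.1 in R 4.3.3 (lmFit and eBayes, group as the only term, two-sided). There was no filter on dim genes, and p was adjusted by Benjamini-Hochberg over all genes. The fit was also tested on simulated data. It recovered 17.9% of 67 genes given a difference of 0.5 log2 units and 98.5% of 67 given 1 unit. Of its 155 calls there, 11 were false. Intervals are 95% intervals of single genes from the same fit and are not adjusted. Counts, medians and figures used Python 3.11.15 with pandas 2.3.3 and matplotlib 3.10.9.

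Members, 15 lists of related genes and 9 marker lists were chosen with earlier results of these data known. Named were called members, the 3 most positive and 3 most negative of each complex where these had that sign, complex II, Cycs, Cyc1 and isoform sets, and in each list the called genes (up to 4 by smallest p) or else the gene with the smallest p. Likeness was ranked over genes outside the rule. Members named because their values did not overlap, and Atp5b, Atp5d, Nrf1, Gabpb1, Tfam, Uqcc1 and the subunits outside the rule, were chosen after their values were seen. Alternatives covered scaling, the gene value, a filter, the variance model, the threshold and leaving out each array.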

Additional observations from a re-analysis of the deposited data

Results flagged for a closer look

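Dixon's test for a value that stands apart was applied to 86 sets of 4 livers (the named members and the medians of the member groups), and 5 passed, while chance gives about 1 in 20. Cox8c in Tak1/Casp8 replicate 4 read 6.58, against 5.96 to 6.02 in the other 3 livers of that group. The median deviation of the 8 paralogues known mainly from other tissues or conditions was 0.495 in the same liver, against -0.118 to -0.019 in the other 3. Cox4i2 in Tak1/Rip3 replicate 1 read 7.13, against 7.02 to 7.03. Cox6b1 in Tak1/Rip3 replicate 2 read 12.46, against 13.10 to 13.23, on its only probe set. Ndufs3 in Tak1/Rip3 replicate 3 read 11.39, against 11.59 to 11.62. Its gene value came from different probe sets on these arrays. The probe set that gave 11.39 read 11.43, 11.59 and 11.50 in the other 3 livers, so within it that liver did not stand apart. No cause was tested for any of these.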

How the results depend on the processing

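With 4 livers per group and small differences, single calls depended on the setting. Over all members, 1 was called lower; the count was 0 with arrays shifted to one median, the brightest probe set or a Welch test, 2 with the mean over probe sets (Atp5g2 and Ndufs1), 3 with genes below the 30th percentile left out or with trended, robust variance (Atp5g2, Atp5o and Cox7a2 in both), 4 at an adjusted p under 0.10, and 2 with the 4 subunits outside the rule. It ranged between 0 and 1 when each array was left out. No member was called higher in any of these settings. All genes called (1308) were 1804 with the mean over probe sets, 1566 with the filter, 1554 with trended, robust variance, 759 with the brightest probe set, 115 with the Welch test, 2130 at the threshold of 0.10, and 706 to 1347 when each array was left out, lowest without Tak1/Rip3 replicate 1.

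The sign of the members' median did not depend on the setting. It was -0.10, and between -0.14 and -0.06 under every scaling, gene value, filter and omission tried, with 65 to 76 members negative; the lowest count, 65, came with arrays shifted to one median, where the median of all genes was 0.05. Members without overlap and lower in Tak1/Casp8 livers (9) were 5 after that shift and 9 to 28 when each array was left out, where fewer values make separation easier. Those without overlap and higher (1) were 2 with the mean over probe sets, 0 with the filter and 1 to 2 when each array was left out. The difference of Cycs (-0.18) ranged from -0.26 to -0.12 when each array was left out.

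Signs that reversed were those of single genes near zero or with discordant probe sets. With the mean over probe sets, Cox4i2 was 0.08, Ndufa4 -0.02, Sdhb -0.07 and Map3k7 0.09. With the brightest probe set, Cox4i2 was 0.01, Cox6b2 0.05, Cox7b -0.01, Ndufa4 -0.07, Sdha 0.07, Sdhb -0.02, Acta1 -0.16, Pdss1 0.02, Ripk3 -0.04 and Map3k7 0.09. Over the omissions of single arrays, Cox4i2 ranged from -0.11 to 0.02, Cox8b up to 0.01, Cox6a2 from -0.03 to 0.13, Cox6b1 from -0.09 to 0.16 and Ndufa4 from -0.04 to 0.11. Of the 18 called genes named, 17 lost the call in at least 1 setting, 16 of them with the Welch test, and 7 when some array was left out; 7 genes not called passed in at least 1 setting. The cause was not tested beyond the probe sets given above. No paired analysis was possible because the labels give no numbers that pair mice across the groups.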
